A study of Mus musculus with 7 samples.

Results

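The genes described here are 36 general macrophage and leukocyte genes, listed by symbol, whose products are shared by most myeloid cells (macrophages, microglia, monocytes and granulocytes) and in part by all leukocytes. Each was taken from the deposited value table through the probe set that the platform annotation assigns to exactly 1 symbol, using the probe set with the highest mean where a gene had several. Of the 36 genes, 35 were measured in this way, out of 19938 genes on the array. Lyn, a Src-family kinase, had no such probe set in the annotation used here and was not analysed.

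The samples were RNA from the retinal pigment epithelium (RPE), a sheet of pigmented cells that supports the photoreceptors, of mice of strain C57Bl/6J. There were 4 wild-type and 3 Mfrp rd6 samples, each on its own whole-transcript array. Mfrp encodes a membrane protein of the RPE, and the rd6 allele is a recessive cause of retinal degeneration. The labels do not give zygosity. Per the labels' protocols, eyecups were agitated in RNAprotect to detach the RPE, and the detached material was pelleted, with no sorting step, so any other cells that detached were carried along. The age field gives 8 weeks for wild type and 12 weeks for all 3 Mfrp rd6 samples, in which case effects of age and of genotype cannot be told apart. The growth protocol instead gives 12 weeks for replicate 1 of Mfrp rd6 alone and 8 weeks for the rest. Nothing in the labels says that replicates came from separate animals, so each p-value reflects only how much these samples differ among themselves, and that spread may be technical.

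Myeloid cells arise from blood-forming precursors under transcription factors such as Spi1, and they share a machinery that other cells largely lack: a leukocyte-specific integrin, an NADPH oxidase that makes superoxide, actin regulators of the haematopoietic lineage, and kinases, phosphatases and adaptors that carry signals from immune receptors. In the healthy eye, microglia live in the inner retina and macrophages in the choroid. In retinal degenerations, macrophages and microglia are known to collect in the subretinal space, on the apical side of the RPE. Because these are bulk samples, more cells of a type and more RNA per cell cannot be told apart.

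All values below are log2 signals after RMA, a method that equalises the arrays and summarises the probes of a set, and a change is the Mfrp rd6 mean minus the wild-type mean. The array medians over all genes lay between 7.09 and 7.15. The mean of 16 RPE marker genes was 11.47 to 11.59 on the wild-type arrays and 11.42 to 11.50 on the Mfrp rd6 arrays. These markers were bright on all 7 arrays, 10 of the 16 with a mean above 12 where the highest value of any gene was 13.56, so their mean may respond little to the share of RPE in a sample. The mean of 18 skeletal muscle genes was 6.76 to 7.78 in wild type and 7.81 to 8.67 in Mfrp rd6.

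Pan-myeloid genes were higher in the Mfrp rd6 samples, with large differences between members. Of 35 measured members, 21 rose and 0 fell (limma, adjusted p under 0.05 over all genes), against 1.34% of all 19938 genes that were called higher and 0.813% that were called lower (2.15% in either direction). The largest rises were those of the pore-forming protein Mpeg1 (2.45), the lysozyme Lyz2 (2.39), the lysosomal membrane protein Laptm5 (2.30) and the tetraspanin Cd53 (2.26). In all, 14 members rose by at least 1 log2 unit, as did 0.441% of all genes. The median change of the 35 members was 0.84, and that of all genes was -0.02. In 25 members every Mfrp rd6 array read above every wild-type array, which held for 5.52% of all genes, and in the other 10 the arrays overlapped. In 0 members did every Mfrp rd6 array read below every wild-type array, against 9.82% of all genes. The 14 members that did not pass held several of the best-known myeloid markers, among them Ptprc, Itgam, Mrc1, Cd14 and Cybb. As described below, Ptprc came near the threshold, Mrc1 was dim and the Itgam probe set was uncertain.

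Of the 21 risers, 17 passed in each of the 7 fits that left out 1 array, and Cd48, Ncf1, Ikzf1 and Rac2 did not. When the mean of 18 skeletal muscle genes was added to the fit, 3 members passed, Cd53, Laptm5 and Pld4.

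**Figure D1:**
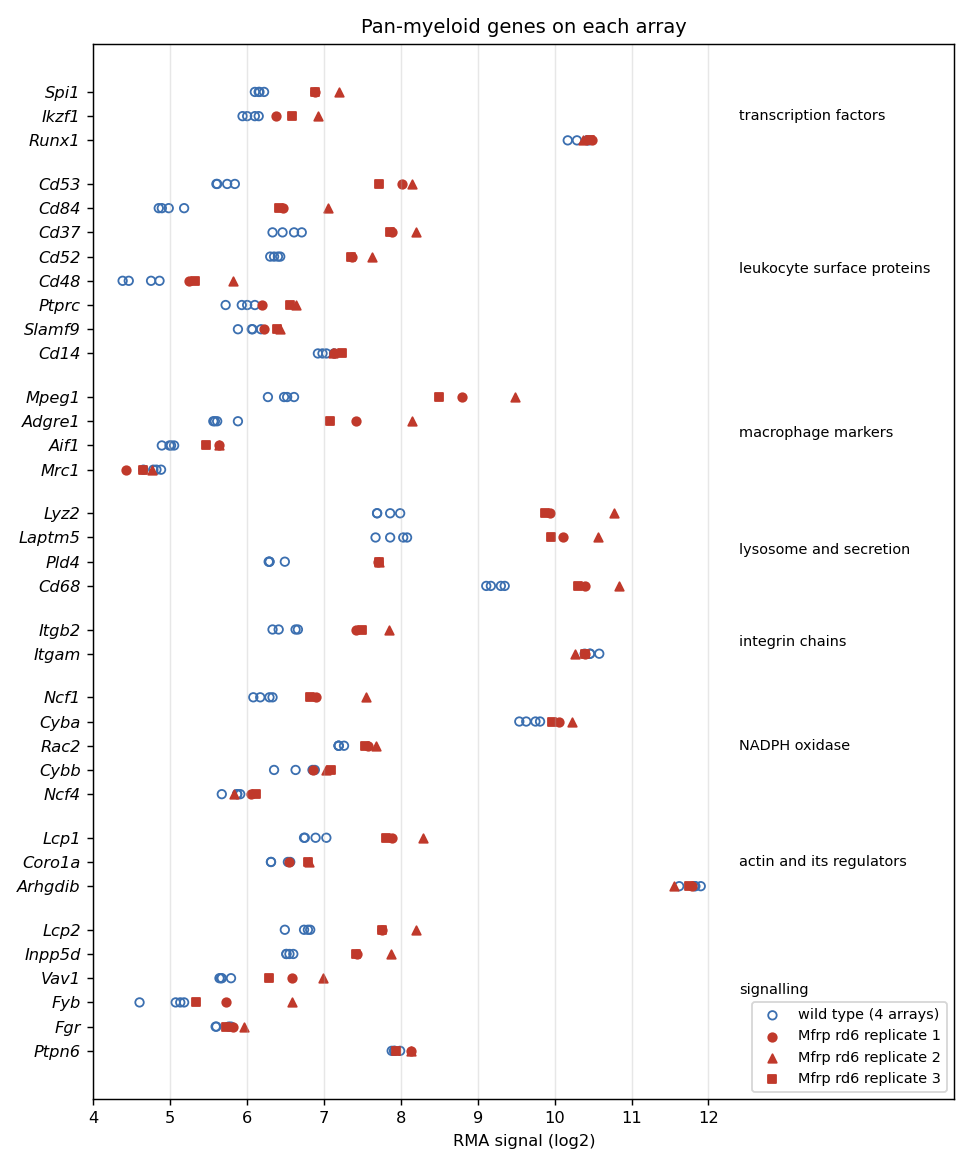
RMA signal (log2, horizontal axis) of the 35 measured pan-myeloid genes (rows, grouped by role) on each array, with wild-type arrays as open circles and the 3 Mfrp rd6 replicates as filled circle, triangle and square. Mpeg1 reads 6.27 to 6.61 in wild type and 8.50 to 9.48 in Mfrp rd6, while the symbols of Itgam, Runx1 and Arhgdib overlap.

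**Figure D2:**
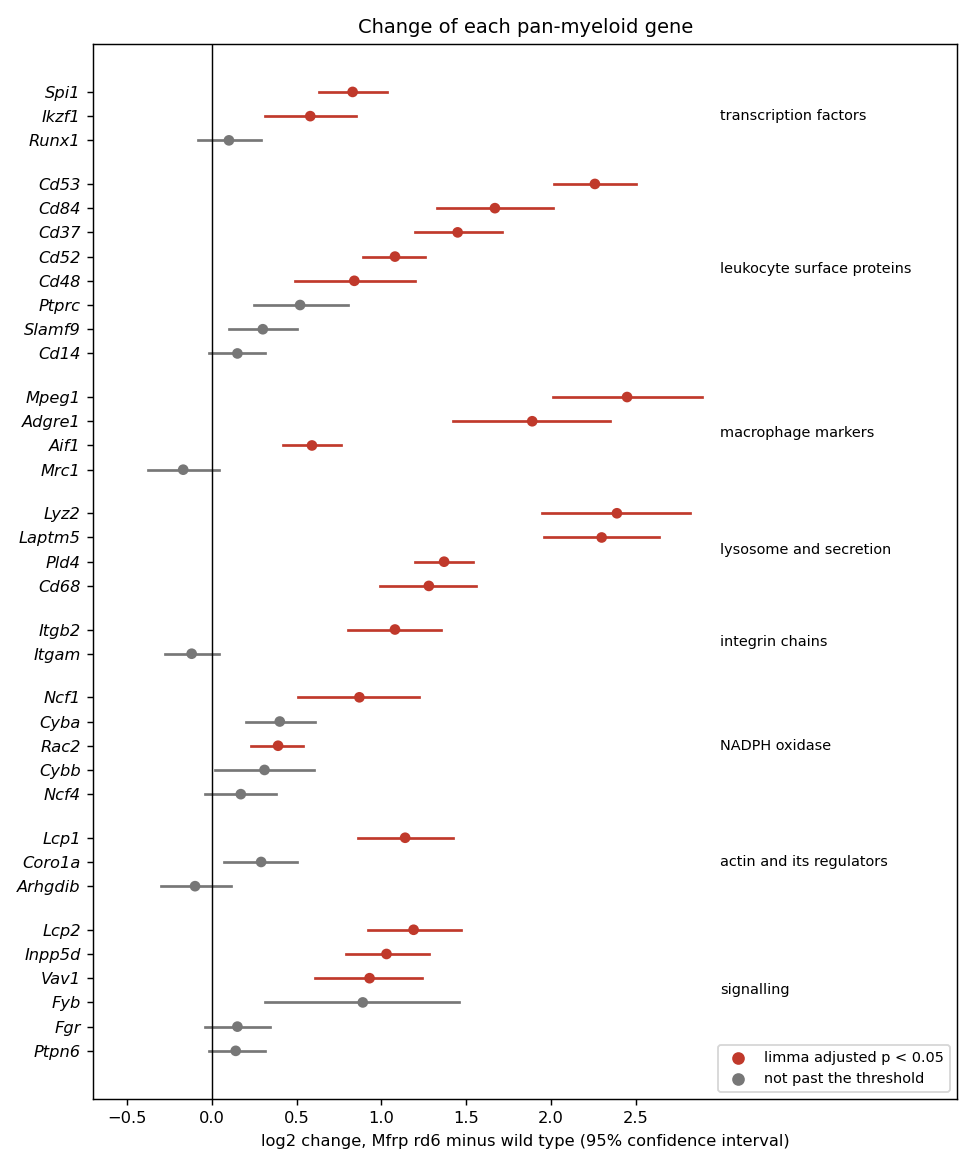
Log2 change (Mfrp rd6 minus wild type, horizontal axis) of each pan-myeloid gene with its 95% confidence interval from the limma fit, grouped by role, with genes past the threshold in red and the others in grey. The changes run from -0.17 (Mrc1) to 2.45 (Mpeg1), and all 4 genes of the lysosome and secretion group lie above 1.

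Of the 3 transcription factors, 2 rose and Runx1 did not pass. Spi1 is the ETS factor that sets the myeloid fate and drives many macrophage genes. It read 6.15, 6.10, 6.22 and 6.16 on the wild-type arrays and 6.88, 7.20 and 6.88 on the Mfrp rd6 arrays. The groups did not overlap, with an SD of 0.05 in wild type and 0.18 in Mfrp rd6, where replicate 2 stood highest. Spi1 rose by 0.83 (SE 0.09, limma adjusted p = 0.00146). Ikzf1, the Ikaros zinc finger factor of lymphoid and myeloid cells, read 6.15, 6.00, 6.10 and 5.94 in wild type against 6.38, 6.92 and 6.58 in Mfrp rd6. Replicate 2 stood highest, and Ikzf1 rose by 0.58 (SE 0.12, limma adjusted p = 0.042). The Ikzf1 call was lost without wild-type replicate 1, 2, 3 or 4 (adjusted p of 0.0775, 0.1, 0.0822 and 0.111), without Mfrp rd6 replicate 2 or 3 (0.0914 and 0.098) and when the arrays were centred on their medians (0.051). Runx1, a core factor of blood stem cells that other tissues also use, read 10.17, 10.45, 10.29 and 10.42 in wild type against 10.48, 10.37 and 10.46 in Mfrp rd6. It was bright in both groups, its arrays overlapped, and its difference of 0.10, with a 95% confidence interval from -0.08 to 0.29, missed the threshold.

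Since Spi1 was among the risers, promoters of the members were searched for the short Spi1-type motif GAGGAA on both strands. TGTGGT (Runx1 type) and TGGGAA (Ikzf1 type) were searched in the same way. GAGGAA and TGGGAA both end in GGAA but differ in the base before it, so the same GGAA cannot count for both. The window was the 250 bases before a transcript start, from RefSeq on build GRCm38.p6, and the table used here held 35 promoters of 28 members. GAGGAA was found in 14 of these 35 promoters (40%) and in 23.3% of 32851 promoters of all genes. Among promoters of the members that rose it was in 7 of 18 (38.9%). TGTGGT was in 5 of 35 member promoters (14.3%, against 14% of all) and TGGGAA in 7 of 35 (20%, against 21.6%). A match is a description of letters, and binding was not measured. The 3 members with the largest rise whose promoter held GAGGAA are shown, with the match in capitals on either strand. They are Laptm5 (chr4:130913066-130913315, plus strand, match starting 38 bases before the start), Cd53 (chr3:106790150-106790399, minus strand, 39 bases before) and Cd37 (chr7:45238840-45239089, minus strand, 168 and 23 bases before). Mpeg1, Lyz2 and Cd84, which rose by more than Cd37, had no such match in this window. Adgre1, which also rose by more than Cd37, had no promoter in the table and was not searched.
Laptm5: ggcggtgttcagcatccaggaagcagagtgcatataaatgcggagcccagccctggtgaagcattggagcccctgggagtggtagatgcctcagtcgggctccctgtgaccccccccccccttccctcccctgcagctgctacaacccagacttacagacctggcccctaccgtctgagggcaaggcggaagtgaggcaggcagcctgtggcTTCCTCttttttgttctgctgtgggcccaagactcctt
Cd53: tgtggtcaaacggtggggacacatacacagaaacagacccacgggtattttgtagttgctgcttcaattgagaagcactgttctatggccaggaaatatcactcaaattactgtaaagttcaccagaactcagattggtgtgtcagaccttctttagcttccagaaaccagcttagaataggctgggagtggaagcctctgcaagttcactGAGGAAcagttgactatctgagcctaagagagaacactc
Cd37: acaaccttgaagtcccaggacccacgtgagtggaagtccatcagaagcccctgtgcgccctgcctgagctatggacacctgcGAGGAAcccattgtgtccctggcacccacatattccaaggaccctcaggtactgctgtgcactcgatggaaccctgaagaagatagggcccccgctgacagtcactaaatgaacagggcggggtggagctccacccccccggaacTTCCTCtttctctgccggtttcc

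Leukocyte surface proteins rose in 5 of 8 cases. Cd53, a tetraspanin found on all leukocytes, whose promoter is printed above, read 5.84, 5.60, 5.74 and 5.61 in wild type against 8.01, 8.14 and 7.72 in Mfrp rd6. That is a 4.79-fold rise (log2 change 2.26, SE 0.11), with the smallest p of all members (limma adjusted p = 7.43e-06). Cd37, a second leukocyte tetraspanin, read 6.71, 6.46, 6.61 and 6.33 against 7.88, 8.20 and 7.86, and rose by 1.45 (SE 0.11, limma adjusted p = 0.000169). The 2 tetraspanins thus rose by different amounts on the same arrays, with all Mfrp rd6 arrays above all wild-type arrays for both. Cd84, a self-binding receptor of the SLAM family, read 4.98, 5.18, 4.85 and 4.89 in wild type against 6.46, 7.05 and 6.42 in Mfrp rd6. It rose by 1.67 (SE 0.15, limma adjusted p = 0.000418). Its family member Cd48, a lipid-anchored receptor, rose by 0.84 from a dim 4.61 ± 0.23 (SD, n = 4) to 5.46 ± 0.31 (SD, n = 3; limma adjusted p = 0.0267). The call on Cd48 was lost without wild-type replicate 2 or 3 (adjusted p of 0.0653 and 0.0709) and without Mfrp rd6 replicate 2 or 3 (0.0669 and 0.054). Slamf9, another SLAM family member, read 6.05 ± 0.12 and 6.35 ± 0.11 and did not pass (0.30, limma adjusted p = 0.145), although its groups did not overlap.

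Cd52, a very short lipid-anchored glycoprotein of leukocytes, read 6.35, 6.30, 6.40 and 6.43 in wild type against 7.37, 7.62 and 7.35 in Mfrp rd6, and rose by 1.08 (SE 0.08, limma adjusted p = 0.000152). Ptprc, the CD45 phosphatase carried by every nucleated blood cell, read 5.72, 6.10, 5.93 and 6.00 in wild type against 6.19, 6.63 and 6.56 in Mfrp rd6. The arrays did not overlap, but the lowest Mfrp rd6 array lay close to the highest wild-type array. Its difference of 0.52, with a 95% confidence interval from 0.25 to 0.80, missed the threshold (limma adjusted p = 0.0695). Without Mfrp rd6 replicate 1 Ptprc passed (0.66, adjusted p = 0.0339), as it did with variance trend and robust moderation together or with array weights. Cd14, the co-receptor for bacterial lipopolysaccharide, read 7.02 ± 0.09 and 7.16 ± 0.06, with overlapping arrays and a change of 0.15 that did not pass.

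Of 4 macrophage markers, 3 rose. Mpeg1, which inserts pores into engulfed bacteria, read 6.27, 6.52, 6.61 and 6.48 in wild type against 8.79, 9.48 and 8.50 in Mfrp rd6, a 5.48-fold rise (log2 change 2.45, SE 0.20, limma adjusted p = 0.000182). It ranked 13th of all 19938 genes by the size of its rise. Adgre1, the adhesion receptor used as the standard surface marker of mouse macrophages, read 5.56, 5.88, 5.58 and 5.61 against 7.41, 8.14 and 7.08, and rose by 1.89 (SE 0.21, limma adjusted p = 0.00159). The 3 Mfrp rd6 arrays spread over more than 1 log2 unit for Adgre1, and the lowest of them was still above every wild-type array. Aif1, the calcium-binding protein Iba1 by which microglia are stained, read 4.98 ± 0.07 in wild type against 5.58 ± 0.10 in Mfrp rd6, a rise of 0.59 (limma adjusted p = 0.00397). It was dim in both groups, and RMA compresses the changes of dim probe sets. Mrc1, the mannose receptor of tissue-resident and perivascular macrophages, read 4.82, 4.65, 4.78 and 4.88 in wild type against 4.43, 4.76 and 4.65 in Mfrp rd6. The groups overlapped at a dim level, and the difference of -0.17, with a 95% confidence interval from -0.38 to 0.04, missed the threshold (limma adjusted p = 0.439).

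All 4 genes of the lysosome and secretion group rose, each by more than 1 log2 unit. Lyz2, the secreted lysozyme of macrophages, read 7.69, 7.99, 7.86 and 7.69 in wild type against 9.94, 10.77 and 9.87 in Mfrp rd6, a rise of 2.39 (SE 0.20, limma adjusted p = 0.000208). Its near-identical copy Lyz1 rose too, by 0.74 and at the edge of the threshold (limma adjusted p = 0.05 after rounding), so the split of signal between the copies is uncertain. Laptm5, a lysosomal protein that turns over immune receptors and whose promoter is printed above, read 7.67, 8.08, 8.03 and 7.86 against 10.11, 10.57 and 9.95, and rose by 2.30 (SE 0.15, limma adjusted p = 5.32e-05). Cd68, the lysosomal glycoprotein used to stain macrophages, was already bright in wild type at 9.11, 9.35, 9.17 and 9.30, and read 10.39, 10.84 and 10.30 in Mfrp rd6. It rose by 1.28 (SE 0.13, limma adjusted p = 0.000844). Pld4, a nuclease of the lysosome that degrades single-stranded nucleic acids, read 6.28, 6.29, 6.49 and 6.29 in wild type against 7.70, 7.71 and 7.71 in Mfrp rd6. The Mfrp rd6 arrays were almost equal for Pld4, unlike those of its neighbours in the group, and it rose by 1.37 (SE 0.07, limma adjusted p = 1.52e-05).

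The probe sets for the chains of the leukocyte integrin Mac-1 differed from each other. Itgb2, the beta chain shared by all leukocyte-specific integrins, read 6.41, 6.33, 6.66 and 6.63 in wild type against 7.41, 7.85 and 7.49 in Mfrp rd6, and rose by 1.08 (SE 0.12, limma adjusted p = 0.00198). Itgam, the alpha chain CD11b, read 10.46, 10.58, 10.46 and 10.39 in wild type against 10.39, 10.27 and 10.40 in Mfrp rd6. It was bright and flat, and its difference of -0.12, with a 95% confidence interval from -0.28 to 0.04, missed the threshold (limma adjusted p = 0.498). In the platform annotation, 2 of the 6 sequence records behind this Itgam probe set are also listed for 3 probe sets annotated to both Itgam and the ribosomal protein gene Rpl35. Those 3 probe sets read between 11.44 and 11.95 on the 7 arrays. Whether the probes of the Itgam set respond to other transcripts was not tested.

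Of 5 measured parts of the phagocyte NADPH oxidase, 2 rose. The enzyme consists of a membrane pair, Cybb (the catalytic chain) and Cyba, and of cytosolic subunits that join it on activation. Cybb read 6.35, 6.88, 6.63 and 6.85 in wild type against 6.85, 7.03 and 7.09 in Mfrp rd6, with 1 Mfrp rd6 array among the wild-type values, and its change of 0.31 did not pass (limma adjusted p = 0.28). Cyba read 9.54, 9.81, 9.75 and 9.63 against 10.06, 10.23 and 9.97. The arrays of Cyba did not overlap, and its change of 0.40 narrowly missed the threshold (95% confidence interval 0.20 to 0.61, limma adjusted p = 0.0593). It passed with quantile normalization (0.45, adjusted p = 0.0153), with either filter on dim genes, with variance trend and robust moderation together and with array weights. The cytosolic organiser Ncf1 rose by 0.87, from 6.22 ± 0.11 to 7.08 ± 0.40 (limma adjusted p = 0.0252), and the GTPase Rac2 rose by 0.39, from 7.21 ± 0.03 to 7.59 ± 0.08 (limma adjusted p = 0.0194). The call on Ncf1 was lost without wild-type replicate 1, 2, 3 or 4 (adjusted p of 0.0574, 0.0661, 0.0561 and 0.0656). That on Rac2 was lost without wild-type replicate 1, 3 or 4 (0.0503, 0.0546 and 0.0708) and without Mfrp rd6 replicate 1 or 2 (0.0668 and 0.0883). The regulatory subunit Ncf4 read 5.83 ± 0.11 and 6.00 ± 0.15, and its change of 0.17 did not pass.

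Among 3 genes of actin and its regulators, 1 rose. Lcp1, the leukocyte plastin that bundles actin filaments, read 6.74, 6.89, 7.03 and 6.75 in wild type against 7.88, 8.29 and 7.80 in Mfrp rd6, a rise of 1.14 (SE 0.12, limma adjusted p = 0.00146). Coro1a, the coronin of haematopoietic cells, read 6.43 ± 0.14 and 6.71 ± 0.14 with overlapping arrays, and its change of 0.29 did not pass (limma adjusted p = 0.196). Arhgdib, a GDP-dissociation inhibitor of small GTPases known mainly from haematopoietic cells, was the brightest probe set of the list on every array, at 11.79 ± 0.12 in wild type against 11.70 ± 0.13 in Mfrp rd6. Its change of -0.10 did not pass, and the sign turned when the muscle mean was added to the fit (0.17, adjusted p = 0.834).

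Of 6 measured signalling proteins, 3 rose. Lcp2, the adaptor that assembles signalling complexes below immune receptors, read 6.49, 6.82, 6.79 and 6.74 in wild type against 7.76, 8.19 and 7.76 in Mfrp rd6, and rose by 1.19 (SE 0.12, limma adjusted p = 0.00112). Inpp5d, a phosphatase that removes the 5-phosphate of inositol lipids and dampens such signals, read 6.54 ± 0.04 and 7.57 ± 0.26 and rose by 1.03 (limma adjusted p = 0.00129). Vav1, an exchange factor that switches on small GTPases in blood cells, rose by 0.93, from 5.69 ± 0.07 to 6.62 ± 0.36 (limma adjusted p = 0.0107). Fyb, an adaptor that binds Lcp2, read 4.60, 5.07, 5.18 and 5.13 against 5.73, 6.58 and 5.34. Its arrays did not overlap, but they spread more widely than those of any other member in both groups, and the change of 0.89 did not pass (95% confidence interval 0.31 to 1.46, limma adjusted p = 0.133). When the muscle mean was added to the fit, the change of Fyb was 0.05 (adjusted p = 0.991). The tyrosine phosphatase Ptpn6 read 7.92 ± 0.05 and 8.07 ± 0.11 (0.14, limma adjusted p = 0.409). The Src-family kinase Fgr read 5.68 ± 0.10 and 5.84 ± 0.12 (0.15, limma adjusted p = 0.447), and neither passed. The sign for Fgr turned when the muscle mean was added to the fit (-0.05, adjusted p = 0.973).

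Whether paired members changed by different amounts was asked of the difference between both genes on each array, which any scaling of a whole array leaves as it is. The pairs were set with earlier results of some members known, and 11 of 12 could be measured. Most pairs set a member that rose against one that did not pass. A small p was thus likely beforehand and adds no independent support. In 8 of the 11, a two-sided exact permutation test gave p = 0.0286, the smallest value that the 35 possible splits allow (0.0393 after adjustment over the pairs). Itgb2 gained 1.20 on the Itgam probe set, with within-array differences of -4.25 to -3.76 in wild type and -2.98 to -2.42 in Mfrp rd6. Because it is uncertain what that probe set measures, this does not show how Itgam itself behaved. Mpeg1 gained 1.93 on Ptprc. Adgre1 gained 2.06 on Mrc1, but Mrc1 lay on every array below 5.63, the 95th percentile of olfactory receptor genes in wild type, so that value does not show how Mrc1 itself behaved. Lyz2 gained more than Cd68 (Cd68 minus Lyz2 changed by -1.11), and Ncf1 more than Ncf4 (Ncf4 minus Ncf1 changed by -0.70). Inpp5d gained 0.89 on Ptpn6, and Spi1 gained 0.72 on Runx1. Cd68, Ptpn6 and Runx1 were brighter in wild type than their partners. The same added signal gives a smaller log2 change from a brighter start, and the part of this was not tested. Aif1 gained 0.71 on Itgam, with both group means of Aif1 below that percentile and the Itgam probe set uncertain. Cybb and Cyba did not differ detectably (-0.09, exact p = 0.514), nor did Lcp2 and Fyb (0.30, exact p = 0.286) or Spi1 and Ikzf1 (0.25, exact p = 0.0571).

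**Figure D3:**
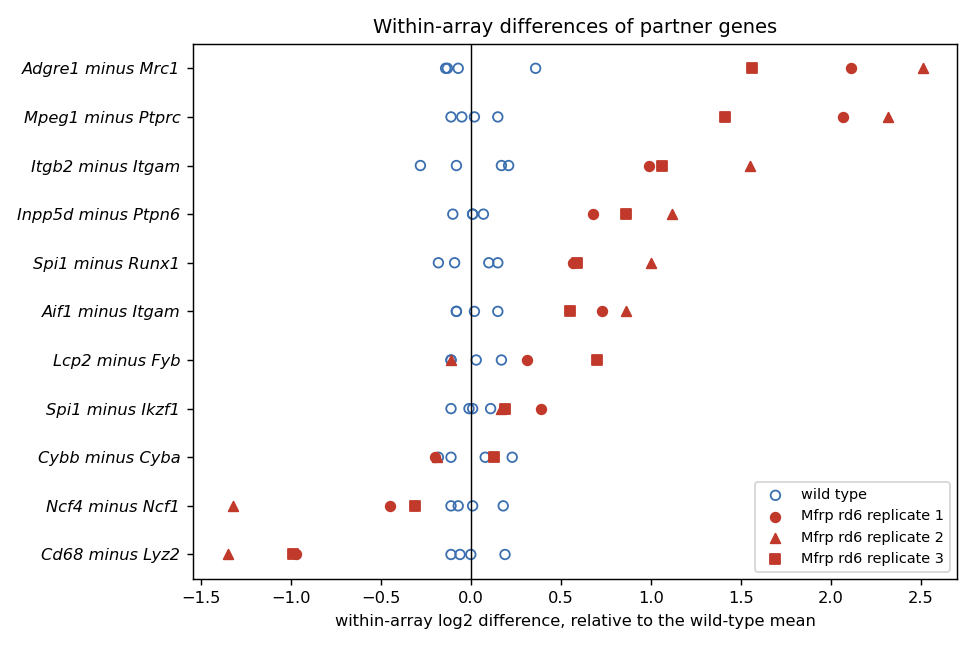
Within-array log2 difference between paired pan-myeloid genes (rows), relative to the wild-type mean of that difference (horizontal axis), with wild-type arrays as open circles and the Mfrp rd6 replicates as filled symbols. For Adgre1 minus Mrc1 all 3 Mfrp rd6 arrays lie above all wild-type arrays, while for Cybb minus Cyba the symbols overlap.

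The 3 Mfrp rd6 arrays were not alike in these genes. Replicate 2 had the highest value of the 3 in 20 of the 21 risers, the exception being Pld4, and replicate 3 had the lowest in 15. For the risers, replicate 2 lay above the mean of replicates 1 and 3 by a median of 0.45 (range 0.00 to 0.90), while the median of that difference over all genes was 0.00. The median SD of the risers was 0.26 in Mfrp rd6 and 0.11 in wild type, against 0.12 in both groups for the members that did not pass. Leaving out Mfrp rd6 replicate 2, 18 members passed, and the median change of all 35 members was 0.64. Leaving out replicate 1, which under the growth protocol equalises the ages, 21 members passed, 20 of them the same.

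Skeletal muscle transcripts, which do not come from the RPE, also had a higher mean on every Mfrp rd6 array than on any wild-type array. Within Mfrp rd6, replicate 2 was highest and replicate 3 lowest in both the muscle mean and the member mean. Within wild type, replicate 3 stood out in the muscle mean but not in the member mean. The mean of the 35 members on wild-type arrays 1 to 4 was 6.75, 6.83, 6.83 and 6.80, and on the Mfrp rd6 arrays 7.59, 7.89 and 7.56. The mean of the 18 muscle genes on the same arrays was 6.76, 6.83, 7.78 and 6.95, and 8.38, 8.67 and 7.81. Wild-type replicate 3 and Mfrp rd6 replicate 3 thus had nearly equal muscle means, and their member means were 6.83 and 7.56. With the muscle mean as a covariate, 22 genes in all were called higher (0.11% of those tested), among them Cd53 (2.02, adjusted p = 0.00808), Laptm5 (1.87, adjusted p = 0.0295) and Pld4 (1.21, adjusted p = 0.0115). The other 18 risers no longer passed in that fit, with changes of 0.34 to 1.93 and adjusted p of 0.0637 to 0.736. The median change of the 35 members was 0.49 there, against 0.84 without the covariate. Vav1 went from 0.93 to 0.48, Ncf1 from 0.87 to 0.48 and Lcp1 from 1.14 to 0.73, and the standard error for Mpeg1 was 0.28 in place of 0.20. When replicate 3 of wild type and replicate 2 of Mfrp rd6 were both left out, 17 members passed. Of the 18 muscle genes themselves, 4 rose and 0 fell, but all 18 changes were positive and 17 had an unadjusted p under 0.05. That count of 4 was 0 with the replicate block, 9 with either filter on dim genes, 16 with array weights and 11 without that pair of arrays. It was 14 without wild-type replicate 3, 9 without Mfrp rd6 replicate 3 and 0 without any other single array. Genes of choroidal endothelium were higher on the Mfrp rd6 arrays as well, with a list mean of 6.86 to 7.23 in wild type and 7.33 to 7.65 in Mfrp rd6. Of these 12 genes 2 rose, but 11 changes were positive (median 0.39) and 9 had an unadjusted p under 0.05 in the limma fit. Of 14 rod photoreceptor genes 0 passed (limma, 4 at an unadjusted p under 0.05), although all 14 changes were negative, with a median of -0.49. The list mean of the rod genes was 7.29 to 8.43 in wild type and 7.09 to 7.45 in Mfrp rd6, and 2 of them were called lower with variance trend and robust moderation together and 3 with the replicate block. Of the 16 RPE genes, 2 fell, Rdh10 (-0.54) and Lrat (-0.40). The part of endothelium and rods in the members' result was not tested.

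**Figure D4:**
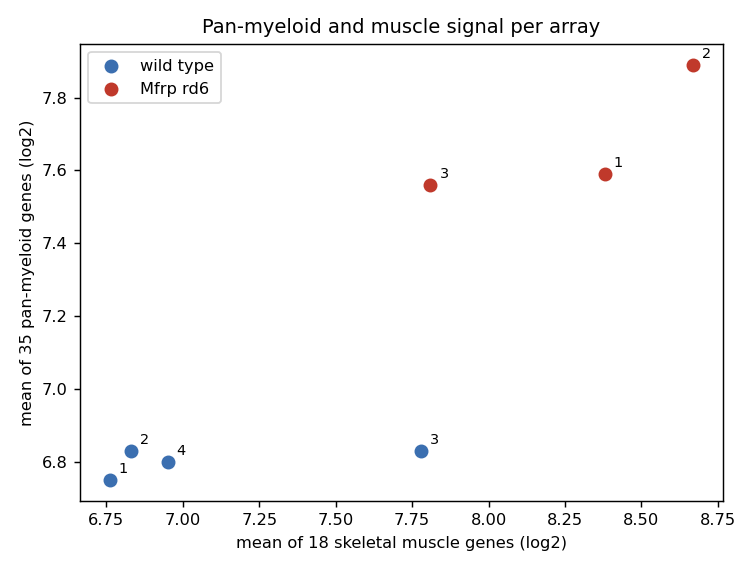
Mean log2 signal of the 35 measured pan-myeloid genes (vertical axis) against the mean of 18 skeletal muscle genes (horizontal axis), 1 point for each array, labelled with its replicate number. The member means are 6.75 to 6.83 in wild type and 7.56 to 7.89 in Mfrp rd6, and replicate 3 of both groups has a muscle mean near 7.8.

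Other genes of the same machinery changed in part, as counted over lists that do not hold the members. Over all genes, 1.34% were called higher and 0.813% lower. Among 14 leukocyte actin regulators, 4 rose, led by Plek, a substrate of protein kinase C in platelets and leukocytes (1.60, adjusted p = 0.00112), and Nckap1l, the haematopoietic subunit of the WAVE actin complex (1.39, adjusted p = 0.00669). Of 8 NADPH oxidase genes and partners, only the proton channel Hvcn1 rose (1.10, adjusted p = 0.00475). Of 18 other blood-cell transcription factors 2 rose, the ETS factor Fli1 (0.85) and the interferon regulatory factor Irf8 (0.66). Of 20 other leukocyte signalling proteins 2 rose, Sash3 (0.60) and the kinase Btk (0.57), while Syk, the kinase below many myeloid receptors, differed by -0.05. A list of 15 other tetraspanins and SLAM receptors held 3 risers, Ly9 (0.83), Slamf6 (0.54) and Cd3e (0.43), the last of which belongs to neither family. Of 9 leukocyte integrins and partners 0 passed in either direction in the limma fit, and the alpha chain Itgax came nearest (0.50, limma adjusted p = 0.0632). At an unadjusted p under 0.05, 3 of these 9 passed, and 1 was called with the filter at a mean of 6, with variance trend and robust moderation together, with array weights or without Mfrp rd6 replicate 3. No gene of these 6 lists fell, which at a share of 0.813% over all genes says little about them.

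Markers of single leukocyte types differed in how many rose. Of 10 microglial markers 6 rose, among them the purinergic receptor P2ry13 (2.63) and the receptor Fcrls (1.92), with a list mean of 6.36 to 6.60 in wild type and 7.39 to 7.87 in Mfrp rd6. Of 11 markers of border and perivascular macrophages 0 rose and 0 fell (limma, 1 at an unadjusted p under 0.05), and the list mean was 6.04 to 6.19 and 6.03 to 6.11. The wild-type means of Cd163, Lyve1, F13a1, Cd209f, Cd209g, Clec10a, Pf4 and Ccl8 were 3.53 to 5.62, under the guide of 5.63 described below. A change of these genes could thus be missed. Cbr2, at 13.27 in wild type, raised the list mean. Of 9 monocyte markers 1 rose (Nr4a1, 0.59) and 1 fell (Plac8, -0.80). The monocyte receptor Ccr2 read 4.62 in both groups, below 5.63, the 95th percentile of 1027 olfactory receptor genes in wild type, which are a rough guide to what silent genes read. Of 12 neutrophil markers 2 rose, Csf3r (1.30) and Cxcr2 (0.43), and 1 fell, Ltf (-0.78). The call on Ltf was lost with quantile normalization and with array weights. The granule genes Elane and Mpo differed by 0.04 each, with Mpo below that guide in wild type (5.26). Of 13 markers of T and NK cells 1 rose (Cd3e), with 4 at an unadjusted p under 0.05 in the limma fit. Cd3g narrowly missed the threshold (0.61, limma adjusted p = 0.0508). The count for T and NK cells was 2 with variance trend and robust moderation together, with array weights or with probe sets averaged. Of 9 B-cell markers 1 rose (Cd22, 0.86). Cd79a, a chain of the B-cell receptor, read 4.64 and 4.66, also below that guide. Of 9 mast cell, 9 dendritic cell and 6 red cell or platelet markers 0 passed in either direction in the limma fit, with 0, 1 and 0 at an unadjusted p under 0.05. Many of the mast and dendritic cell markers read below the same guide in wild type. Over these 15 lists together, 22 of 169 genes rose (13%, against 1.34% of all genes), and 2 fell (against 0.813% of all genes). With the muscle mean as a covariate 0 genes of any of the 15 lists were called higher.

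**Figure D5:**
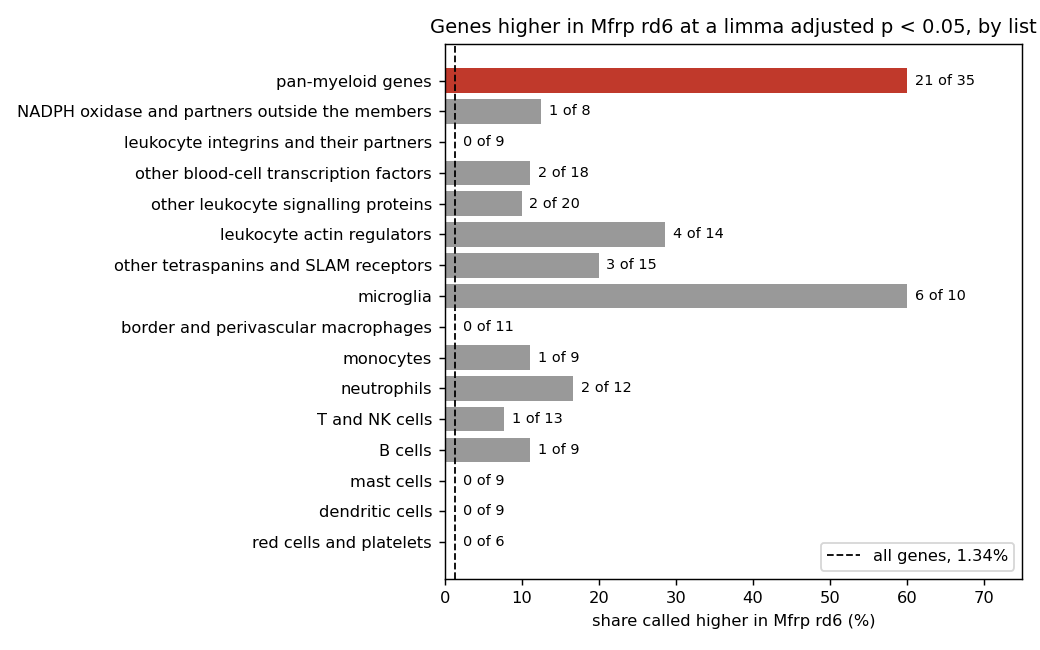
Share of measured genes that were higher in Mfrp rd6 at a limma adjusted p under 0.05 (horizontal axis, percent) for the pan-myeloid genes (red) and 15 other lists (grey), with counts beside the bars and the share over all genes as a dashed line. The pan-myeloid and microglial lists both reach 60%, against 1.34% of all genes.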

How the data were processed

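RNA from 7 mouse RPE samples (4 wild type, 3 Mfrp rd6) was measured on 1 array each. Per the submitters' processing notes, the authors ran RMA in Affymetrix Expression Console, and the deposited signals are on a log2 scale. The software version is not given in the sources used here. The table held 35556 probe sets, of which 21789 had exactly 1 gene symbol in the platform annotation, which can be old. The highest-mean probe set was used for the 999 genes with several, which left 19938 genes, and all 35 measured members matched the RefSeq gene table by Entrez number. Each gene was fitted with limma 3.58.1 (R 4.3.3; lmFit and eBayes, 5 residual and 4.56 prior degrees of freedom, no filter, no block), with Benjamini-Hochberg adjustment over all genes and a threshold of 0.05. The fit was tested on simulated data. The members and all lists were chosen with earlier results of these data known. Values on every array were given for the 12 members with the largest change and for 10 set by name (further members where their values bear on a result), and from each other list the 2 called genes with the largest change or the brightest gene; other genes named were chosen after their values were seen. Array slides and scan dates did not enter any fit, and the number of arrays limits the precision. Tables came from pandas 2.3.3 under Python 3.11.15, figures from matplotlib 3.10.9. The alternatives were median centring or quantile normalization, 2 filters on dim genes, limma's variance trend together with robust moderation (both at once), weights per array, probe sets of 1 gene averaged or each tested, a block for replicate number, the mean of 18 skeletal muscle genes as a covariate, and arrays left out singly or as 1 pair.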

Additional observations from a re-analysis of the deposited data

Results flagged for a closer look

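Among the 35 measured members, 4 had a wild-type array far from the other 3, judged by its gap to the nearest array over the range of the group; chance gives about 1 in 20 groups. Adgre1 read 5.88 on wild-type replicate 2, where the others read 5.56 to 5.61. Rac2 read 7.26 on the same array, where the others all read 7.19. Pld4 read 6.49 on wild-type replicate 3 and 6.28 to 6.29 on the others. Ncf4 read 5.67 on wild-type replicate 4 and 5.87 to 5.91 on the others. In Adgre1, Pld4 and Rac2 every Mfrp rd6 array was above the far array as well.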

How the results depend on the processing

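The number of members that rose was 21, and it was 17 to 21 in the fits that left out 1 array. It was 9 of 13 members tested when only genes above the median level were kept, where 13 of the 21 were not tested, and 3 with the muscle mean as a covariate. In the other alternatives it was 17 to 23, and the number that fell was 0 in all 18. Of 601 changes of single members under the alternatives, 544 kept their sign and their side of the threshold, 46 no longer passed, 9 newly passed and 2 turned sign, both with the muscle covariate: Arhgdib (0.17) and Fgr (-0.05). The largest loss of calls thus came with that covariate, which rises with genotype. With the replicate number as a block, 18 members passed, Cd48, Ikzf1, Ncf1 and Rac2 being lost and Ptprc gained, and 226 of all genes changed in place of 429. The labels do not say that the numbers pair samples. Deviations of same-numbered arrays from their group means correlated at -0.303, -0.0729 and 0.0364 (numbers 1, 2 and 3). Those of differently numbered arrays correlated at -0.266 to 0.369. With so few arrays this check cannot decide whether the samples were paired. Over all genes the number called higher was 267 and ranged from 22 (muscle covariate) to 405 (array weights), and the number called lower was 162 and ranged from 26 (muscle covariate) to 355 (variance trend and robust moderation together). The 11 within-array differences kept their sign without each array in turn, where the exact test cannot go below 0.1 (without a wild-type array) or 0.0667. RMA gives no detection call, so whether the 5 members with a wild-type mean below the olfactory guide of 5.63 (Cd84, Fyb, Aif1, Mrc1 and Cd48) were above background there could not be judged.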

Other observations

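A few single markers of other leukocyte types changed while most of their lists did not pass. Plac8, a small protein of monocytes and some epithelia, was bright and fell from 10.79 ± 0.14 (SD, n = 4) to 9.99 ± 0.29 (SD, n = 3; limma adjusted p = 0.0151). Ltf, the iron-binding lactoferrin of neutrophil granules and of secretory epithelia, fell from 10.03 ± 0.18 to 9.25 ± 0.35 (limma adjusted p = 0.0389). The call on Ltf was lost with quantile normalization and with array weights. In both Plac8 and Ltf all Mfrp rd6 arrays lay below all wild-type arrays. Csf3r, the receptor for the granulocyte growth factor, rose from 5.74 ± 0.08 to 7.04 ± 0.35 (limma adjusted p = 0.00138). Cd22, a sialic acid-binding inhibitory receptor named for B cells, rose from 5.67 ± 0.25 to 6.53 ± 0.13 (limma adjusted p = 0.0112).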
